A study of Mus musculus with 24 samples.

Results

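The G2 and mitosis genes are 44 genes whose products carry a cell from the end of DNA replication through chromosome segregation and cytokinesis, chosen by name from the 55291 gene symbols counted in this RNA-seq experiment. They comprise the kinases and cyclins of mitotic entry, the chromosomal passenger complex, the spindle checkpoint with the anaphase-promoting complex (APC/C) activator Cdc20 and securin, proteins of chromosome structure, mitotic kinesins, proteins of the centromere and kinetochore, spindle microtubule proteins and cytokinesis factors. Every one of the 44 had enough counts to be tested in each of the 17 comparisons made, and none was at 0 in any library.

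Cdk1 bound to cyclin B drives entry into mitosis, and the APC/C with Cdc20 ends it by marking cyclin B and securin for destruction. Most of these genes are transcribed in a wave in late S phase, G2 and mitosis, through the MuvB core bound to B-Myb and FOXM1 in dividing cells, and they are shut off by the DREAM complex in resting cells. Growing myoblasts divide and therefore express them, and withdraw from the cycle when they differentiate into myotubes.

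The RNA came from C2C12 cells, an immortalized mouse myoblast line, according to the study's methods, whereas the sample labels speak of primary mouse myoblasts. There were 4 cell lines, each a puromycin-selected population that carried an integrated shRNA vector: a scrambled shRNA (scr) as control, Baf180 KD, Baf250a KD and Brd9 KD. Baf180 (gene Pbrm1) belongs to the PBAF form of the mSWI/SNF chromatin remodeler, Baf250a (gene Arid1a) to the BAF form and Brd9 to the ncBAF form. Each line was grown in proliferation medium for 48 h without added metal (NT), with 100 µM CuSO4 or with 50 µM ZnSO4, giving 12 groups of 2 replicates and 24 libraries.

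Promoters were available for 37 of the 44 genes (40 windows from 250 bases before to 50 bases after a transcription start, RefSeq, build GRCm38.p6). The letters of the cell cycle genes homology region (CHR, which the MuvB core binds: TTTGAA or TTCGAA, either strand) occurred in 30 of the 40 windows (75%), against 19.2% of 32851 promoter windows of the same length. CCAAT on either strand, the letters bound by NF-Y, occurred in 31 windows (77.5%), against 37.4% of all. Both were present in 26 windows (65%), against 7.52% of all, and 4 E2F-type octamers (TTTCCCGC, TTTGGCGC, TTTCGCGC and TTTGCCGC) in 2 windows (5%), against 2.26%. The 120 bases upstream of the start of 6 members are shown to let the arrangement of these letters be compared, with the CHR letters and CCAAT in capitals. Where CCAAT lies on the other strand, its capitals read ATTGG.
Cdk1 (chr10:69352913-69353032, minus strand): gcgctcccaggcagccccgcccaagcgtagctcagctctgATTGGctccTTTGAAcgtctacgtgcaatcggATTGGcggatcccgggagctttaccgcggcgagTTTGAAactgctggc
Ccnb1 (chr13:100786487-100786606, minus strand): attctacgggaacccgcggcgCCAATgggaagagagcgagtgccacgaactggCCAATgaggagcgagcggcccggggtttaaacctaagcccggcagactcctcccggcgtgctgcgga
Ccnb2 (chr9:70421555-70421674, minus strand): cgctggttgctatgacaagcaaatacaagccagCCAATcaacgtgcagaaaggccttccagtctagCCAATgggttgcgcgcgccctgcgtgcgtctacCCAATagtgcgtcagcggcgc
Plk1 (chr7:122159315-122159434, plus strand): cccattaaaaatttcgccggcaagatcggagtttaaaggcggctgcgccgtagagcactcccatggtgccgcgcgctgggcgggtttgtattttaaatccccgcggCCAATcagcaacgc
Aurka (chr2:172370571-172370690, minus strand): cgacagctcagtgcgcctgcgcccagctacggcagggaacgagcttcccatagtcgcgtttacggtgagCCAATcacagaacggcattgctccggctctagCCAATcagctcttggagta
Cdc20 (chr4:118437344-118437463, minus strand): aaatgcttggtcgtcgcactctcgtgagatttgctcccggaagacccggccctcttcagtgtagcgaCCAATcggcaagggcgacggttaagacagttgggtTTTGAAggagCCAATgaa
Cdk1 and Cdc20 carried CHR letters close to the start, at 15 and 18 bases before it. In Plk1 and Aurka the CHR letters lay after the start, outside the stretch shown, and in Ccnb2 one match lay after the start and another 167 bases before it. The Ccnb1 window held no CHR letters. All 6 stretches carried CCAAT, Ccnb2 at 87, 54 and 21 bases before its start. A match of letters is a description of the sequence and does not show that a factor was bound.

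Total counts per library ran from 495778 to 75179394, with the next lowest at 12719173. The library of 495778 counts was replicate 2 of Baf250a KD with Zn, in which the members' counts were lowest (5 for Kif20b). The targeted genes were lower in their untreated lines: Pbrm1 by a log2 fold change of -0.76 in Baf180 KD, Arid1a by -1.53 in Baf250a KD and Brd9 by -0.76 in Brd9 KD. Myoblast markers (Myod1, Myf5, Des, Cdh15, Pax7 and Chrna1) were present in every library, at a summed level of 1352 to 3844 CPM (counts scaled to a common library total), whereas adipocyte and endothelial markers summed to at most 0.78 and 5.46 CPM. Leukocyte markers (Ptprc, Cd68 and Cd14) summed to 10.4 to 22.8 CPM. Of the 2 tested, 1 was called lower in untreated Baf180 KD, 2 in Baf250a KD and 1 in Brd9 KD. The libraries also differed, within and between groups, in how expression moved with the GC content of the exons. The change in log2 expression per 10 points of GC was 0.11 and 0.32 in the untreated scr libraries but -0.25 and -0.34 in scr with Zn, and 0.21 and -0.11 in scr with Cu. In untreated KD libraries it was 0.00 and -0.15 (Baf180 KD), -0.06 and -0.20 (Baf250a KD) and -0.07 and -0.22 (Brd9 KD), below both untreated scr libraries. In Baf250a KD with Zn it was 0.14 and 0.29. The members had a median GC content of 46.2% (39.4 to 56.0%), against 49.2% over 16135 expressed genes, so the count of called members in each comparison with calls is given with and without a correction for GC content and exon length. The counts by role and those of other gene lists are without it.

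Scaled by exon length and library total (RPKM), the members differed widely in untreated scr cells. Cdc20 stood highest at 128 RPKM ± 10.1 (SD, n = 2), followed by the mitotic kinase Plk1 at 63.9 ± 4.47, the kinesin Kif20a at 49.9 ± 0.92, the kinase Aurka at 47.1 ± 1.18 and its activator Tpx2 at 47.0 ± 1.53. The last 3 lay within or close to their spread of each other. Lowest were Cenpf (a kinetochore protein) at 2.62 ± 0.77 RPKM, Kif20b at 2.70 ± 0.88 and Ndc80 (a kinetochore microtubule attachment protein) at 3.72 ± 0.84, which also lay close together.

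**Figure D1:**
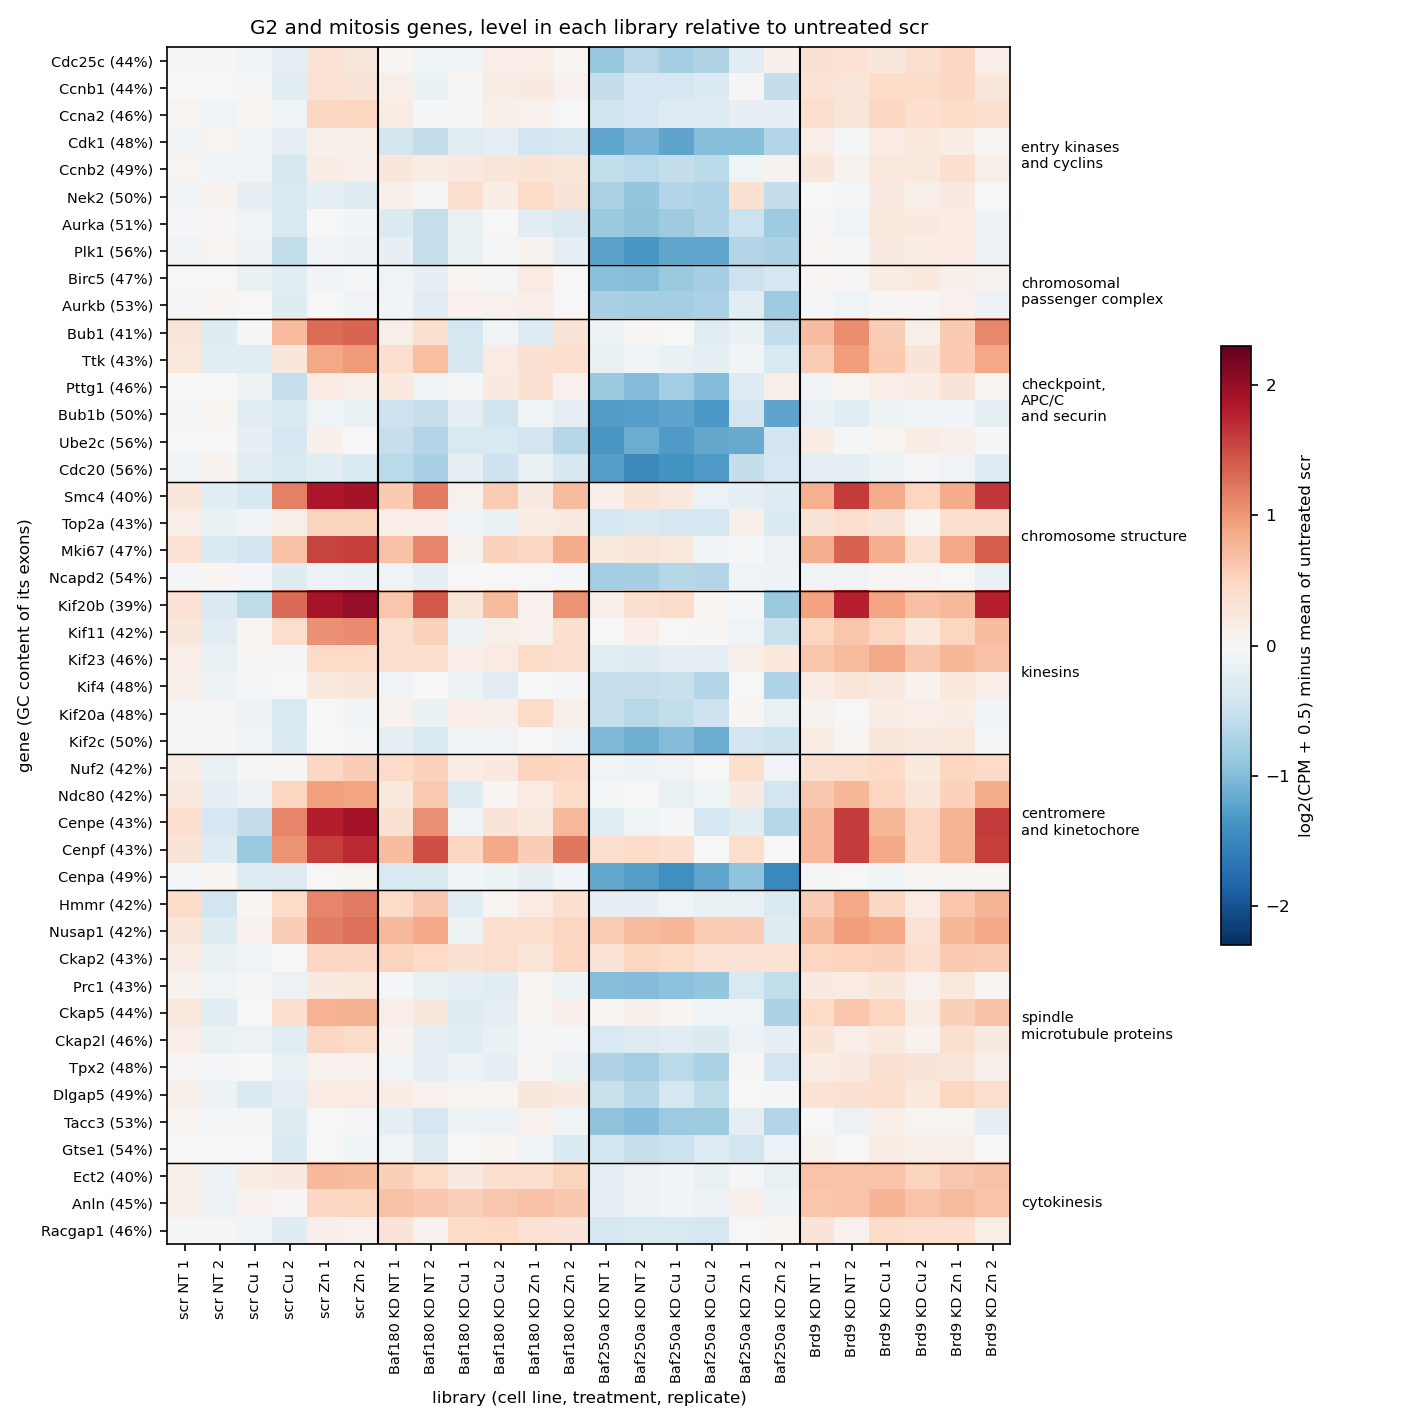
Heat map of the 44 genes, grouped by role and ordered by the GC content of their exons, in each of the 24 libraries. Colour is log2(CPM + 0.5) minus the mean of the 2 untreated scr libraries: Baf250a KD libraries are blue for most entry kinases, Cdc20, Bub1b and Cenpa, and the reddest cells are low-GC genes such as Kif20b and Smc4 in scr with Zn and in replicate 2 of untreated and Zn-treated Brd9 KD.

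Summed over the 44 genes, untreated scr libraries held 5161 and 4723 CPM, untreated Baf180 KD 5187 to 5227, untreated Baf250a KD 3393 to 3450 and untreated Brd9 KD 5931 to 6258. The Baf250a KD sums lay below, and the Brd9 KD sums above, those of every other untreated library. In bulk RNA a smaller share of cells in G2 and mitosis and less RNA of these genes per cell cannot be told apart. Over the 6 libraries of a line, treated or not, 11 members were lower in all of Baf250a KD than in any scr library (Cdk1, Ccna2, Plk1, Aurka, Bub1b, Cdc20, Kif2c, Cenpa, Birc5, Ube2c and Prc1) and none was higher in all, where 14.1% of 16487 genes were below and 14.2% above. In Brd9 KD, 5 members (Kif23, Birc5, Tpx2, Anln and Dlgap5) were above all scr libraries and none below, against 9.11% and 7.24% of genes. In Baf180 KD the only such member was Anln, an actin-binding scaffold of the cytokinetic ring, which was above, against 14.7% of genes above and 9.35% below.

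**Figure D2:**
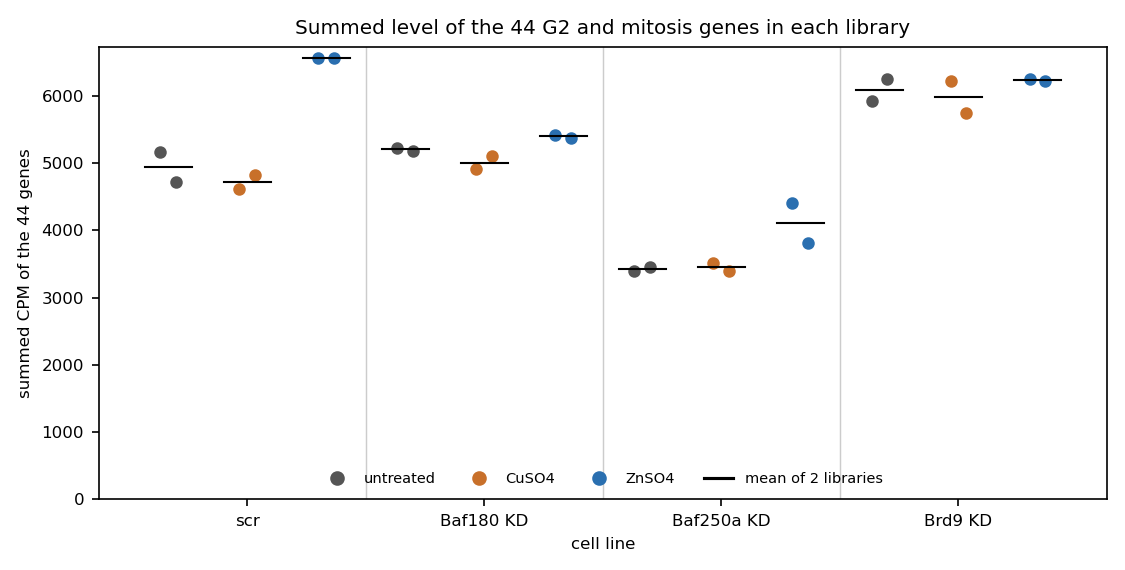
Sum of the CPM of the 44 genes (vertical axis) in each library, by cell line and treatment, with a bar at the mean of 2 libraries. The 2 scr libraries with Zn (6562 and 6569 CPM) lie above the other 4 scr libraries, and the 6 Baf250a KD libraries lie below every library of the other lines.

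The comparison of untreated Baf250a KD with untreated scr asked how these genes differed in growing cells depleted of the BAF subunit. In each comparison of a KD line with scr, depletion and other differences between the selected populations cannot be told apart. The sample titles do not say which shRNA a KD library carried. They were mostly lower: 28 of 44 fell and 2 rose (edgeR's quasi-likelihood test, Benjamini-Hochberg adjusted p under 0.05), where 28.9% of 14971 genes were lower and 28.9% higher. The median log2 fold change of the members was -0.51, and that of all genes 0.00. After the GC correction 37 fell and 1 rose, against 28.4% and 29.6% of genes, with a members' median of -0.53.

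All 8 entry kinases and cyclins fell in Baf250a KD. Cdk1, the kinase of mitotic entry, measured 181 and 199 CPM in untreated scr libraries against 82.1 and 90.1 CPM in untreated Baf250a KD, and fell by 1.17 on the log2 scale (SE 0.11, adjusted p = 1.38e-06). Its partner Ccnb1 (cyclin B1) went from 72.7 and 71.9 CPM to 49.4 and 55.3 CPM, a fall of 0.50 (SE 0.11, adjusted p = 0.00168). The libraries of the groups did not overlap for either gene, and Ccnb1 moved less than Cdk1. Ccna2 (cyclin A2) measured 174 and 161 CPM in scr and 122 and 128 CPM in Baf250a KD, with a fall of 0.45 (SE 0.10, adjusted p = 0.00223). Plk1, which acts from mitotic entry to cytokinesis, fell by 1.33 (SE 0.11, adjusted p = 4.55e-07), from 134 and 147 CPM to 59.3 and 55.1 CPM. Aurka, the centrosomal Aurora kinase, stood at 117 and 121 CPM in scr and at 65.9 and 62.3 CPM in Baf250a KD, and fell by 0.93 (SE 0.10, adjusted p = 8.24e-06). The smallest fall of the 8 was that of Ccna2 and the largest that of Plk1.

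Both members of the chromosomal passenger complex, which corrects faulty chromosome attachments, fell. Aurkb, its kinase, measured 82.0 and 86.3 CPM in scr and 49.8 and 49.4 CPM in Baf250a KD, a fall of 0.79 (SE 0.10, adjusted p = 3.11e-05), and Birc5 (survivin) fell by 1.01. Of the 6 checkpoint, APC/C and securin genes 4 fell. Cdc20 fell by 1.41 (SE 0.11, adjusted p = 3.77e-07), from 226 and 252 CPM to 98.8 and 85.3 CPM, the largest fall of the 44 genes without the GC correction, with which it was at -1.19 and Prc1 lowest at -1.30. Bub1b, which encodes the checkpoint inhibitor BubR1, fell by 1.32 (SE 0.10, adjusted p = 3.03e-07), from 174 and 184 CPM to 72.9 and 73.9 CPM. Ube2c, the ubiquitin-conjugating enzyme of the APC/C, fell by 1.28 and securin (Pttg1) by 0.96. Both Baf250a KD libraries lay below both scr libraries for Cdc20, Bub1b and Ube2c.

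Among the other roles, 4 of 6 kinesins fell (Kif2c, which takes microtubules apart at their ends, by 1.12), 2 of 4 chromosome structure genes (the condensin subunit Ncapd2 by 0.81 and the topoisomerase Top2a by 0.40), 1 of 5 centromere and kinetochore genes (the centromeric histone Cenpa by 1.27) and 1 of 3 cytokinesis genes (Racgap1 by 0.41). Top2a measured 438 and 359 CPM in scr and 299.7 and 318 CPM in Baf250a KD (SE 0.11, adjusted p = 0.00889). The motor Kif11, which pushes spindle poles apart, stood at 77.8 and 54.6 CPM in scr and 65.3 and 72.9 CPM in Baf250a KD, and the proliferation marker Mki67 at 207 and 131 CPM in scr and 192 and 199.8 CPM in Baf250a KD. The groups overlapped for both, and neither passed the test. Of the 10 spindle microtubule proteins 6 fell, with Prc1, which bundles the central spindle, at -1.03, and 2 rose. The genes that rose were Nusap1 (0.61, SE 0.16, adjusted p = 0.0057), a microtubule-bundling protein, and Ckap2 (0.36, SE 0.13, adjusted p = 0.0329).

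Above the members' median GC content 21 of 22 genes fell, and below it 7 of 22 fell and 2 rose. With the GC correction 6 genes did not pass (Mki67, Kif20b, Cenpf, Ckap2, Ckap5 and Smc4), Top2a was at -0.68 and Nusap1 at 0.38. Ckap2 did not pass in DESeq2 either (adjusted p = 0.05002). Of 60 other mitotic genes, 33 fell and 6 rose, and of 23 transcription regulators of cell cycle genes 8 fell and 4 rose. Among the regulators, Mybl2 (B-Myb) fell by 1.03 and Foxm1 by 0.67 (SE 0.10, adjusted p = 0.00011), E2f1 fell by 0.45, and Lin9 of the MuvB core was at 0.11 and did not pass (adjusted p = 0.53). Cdkn1a, the CDK inhibitor p21, rose by 0.53 (SE 0.12, adjusted p = 0.00183). Summed myoblast markers were also lower, at 1352 to 1477 CPM against 3483 to 3844 CPM in scr, with 5 of 6 called lower and 1 higher, and fibroblast markers (Pdgfra, Thy1, Dcn and Col14a1) higher, at 88.2 to 95.2 CPM against 6.87 to 8.26 CPM, with 3 of 3 tested called higher and 1 of the 4 without a count in the Baf250a KD libraries. Differentiating myocyte markers stood at 70.0 to 78.9 CPM against 97.2 to 98.6 CPM, with 2 of 8 tested called higher and 2 lower. The part of these cell state markers in the members' values was not tested. Without any 1 of the 4 libraries, 23 to 37 members were called.

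**Figure D3:**
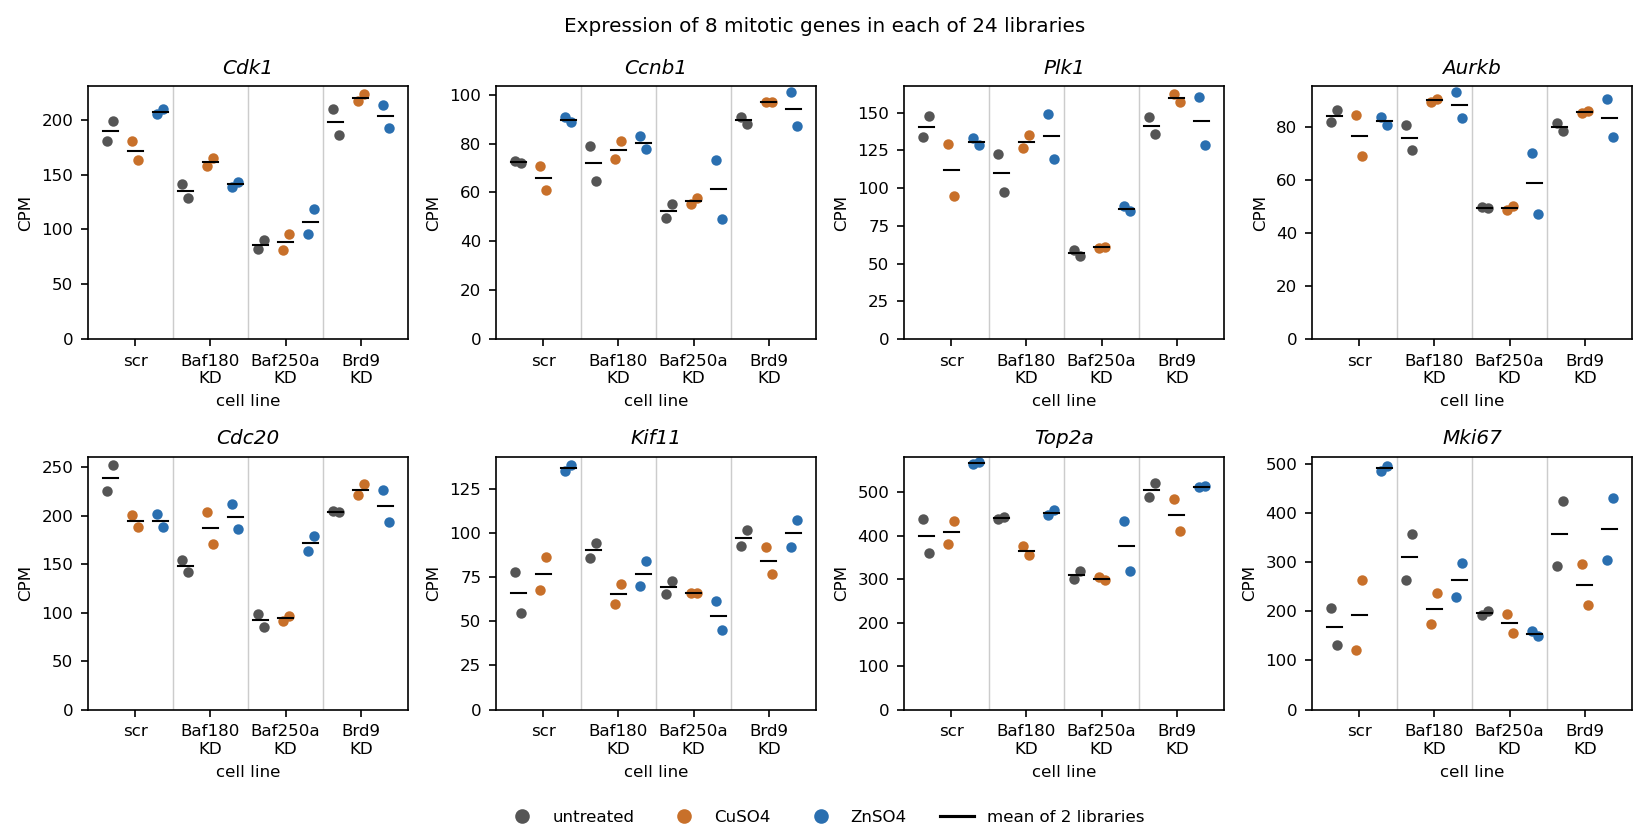
CPM (vertical axis) of 8 members in each of the 24 libraries, by cell line, with untreated, CuSO4 and ZnSO4 libraries in different colours and a bar at the mean of 2 libraries. Cdk1 and Plk1 lie lowest in Baf250a KD, and Cdc20 lies lowest in the Baf250a KD libraries without Zn. Cdc20 in Baf250a KD is higher with Zn than untreated (164 and 179 against 98.8 and 85.3 CPM), above the lowest Baf180 KD library (142 CPM). Mki67 and Kif11 are highest in scr with Zn.

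The comparison of untreated Baf180 KD with untreated scr asked the same of the PBAF subunit, and its members moved in both directions: 13 rose and 9 fell, where 21.7% of 14851 genes rose and 19.3% fell. The median log2 fold change was 0.06 for the members and 0.03 for all genes, so the members as a set showed no shift away from all genes. Of the entry kinases and cyclins 3 of 8 fell and none rose, and of the checkpoint, APC/C and securin genes 3 of 6 fell and 1 rose. Cdk1 measured 141 and 129 CPM in Baf180 KD, below the 181 and 199 CPM of scr (log2 fold change -0.50, SE 0.11, adjusted p = 0.00275). Cdc20 at 155 and 142 CPM fell by 0.70 (SE 0.11, adjusted p = 0.000358), Ube2c by 0.62 (SE 0.10, adjusted p = 0.000685), Bub1b by 0.52 (SE 0.10, adjusted p = 0.00192), Aurka at 95.2 and 82.6 CPM by 0.44 (SE 0.11, adjusted p = 0.00684) and Plk1 at 123 and 97.6 CPM by 0.37 (SE 0.12, adjusted p = 0.029). Both Baf180 KD libraries lay below both scr libraries for these 6 genes. Ccnb1 (79.1 and 64.8 CPM), Ccna2 (187 and 164 CPM) and Aurkb (80.9 and 71.2 CPM) did not pass the test.

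The genes that rose in Baf180 KD were in other roles, with 3 of 5 centromere and kinetochore genes, 3 of 6 kinesins, 2 of 4 chromosome structure genes, 2 of 3 cytokinesis genes and 2 of 10 spindle microtubule proteins. Cenpf rose by 1.13 (SE 0.24, adjusted p = 0.00316), from 48.7 and 32.0 CPM in scr to 64.9 and 111 CPM. Kif20b, a kinesin of late cytokinesis, rose by 1.06 (SE 0.25, adjusted p = 0.00616), from 23.2 and 14.5 CPM to 28.8 and 49.4 CPM, and Smc4, a core condensin subunit, by 0.91 (SE 0.20, adjusted p = 0.00407), from 64.0 and 44.98 CPM to 81.3 and 124 CPM. In each of the 3, Baf180 KD replicate 2 was the higher library. Mki67 at 263 and 357 CPM rose by 0.87 (SE 0.20, adjusted p = 0.00469) and Kif11 at 86.0 and 94.3 CPM by 0.44 (SE 0.15, adjusted p = 0.0368), and Top2a was at 439 and 444 CPM and did not pass.

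By GC content the directions separated: below the members' median 11 of 22 genes rose and none fell, and above it 2 rose and 9 fell. Spearman's rho between log2 fold change and GC content was -0.81 over the 44 genes, which share the GC trend of their libraries, and -0.31 over 14563 genes. After the same correction 10 rose and 7 fell, against 20.8% and 19.7% of genes, and 15 of the 22 calls were kept in the same direction. Kif20b was then at 0.61 and Smc4 at 0.57, and the calls of Plk1 at -0.21 (adjusted p = 0.11) and Kif11 at 0.16 (adjusted p = 0.25) were lost. DESeq2 called 8 members higher and 8 lower, and did not call Cenpf (adjusted p = 0.0672), Kif20b (adjusted p = 0.107), Smc4 (adjusted p = 0.0691) or Mki67 (adjusted p = 0.091), none of which was called without Baf180 KD replicate 2 either. The count dropped to 5 without Baf180 KD replicate 2 and to 13 without Baf180 KD replicate 1. Fewer of all genes were called in these fits too. The members' median log2 fold change was 0.07 without Baf180 KD replicate 2 and -0.05 without Baf180 KD replicate 1. Of the 60 other mitotic genes 16 rose and 8 fell. Mybl2 fell by 0.54 (SE 0.12, adjusted p = 0.00322), E2f1 by 0.36 (adjusted p = 0.029), and Foxm1 was at 0.17 (adjusted p = 0.23) and Cdkn1a at -0.23 (adjusted p = 0.17). Differentiating myocyte markers summed to 169 to 188 CPM in Baf180 KD against 97.2 to 98.6 CPM in scr, with 6 of 9 called higher, and myoblast markers to 1748 to 1939 CPM, with 4 of 6 called lower and 1 higher. Fibroblast markers summed to 34.4 to 37.96 CPM against 6.87 to 8.26 CPM, with 2 of 3 tested called higher and 1 of the 4 without a count in the Baf180 KD libraries. The part of these markers in the members' values was not tested.

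In untreated Brd9 KD against untreated scr, the comparison for the ncBAF subunit, 18 members rose and none fell, where 15.1% of 14277 genes rose and 14.1% fell. Their median log2 fold change was 0.28, against 0.01 over all genes. Kif20b rose by 1.43 (SE 0.30, adjusted p = 0.0118), from 23.2 and 14.5 CPM to 35.2 and 64.5 CPM, Smc4 by 1.27 (SE 0.26, adjusted p = 0.0101), to 95.2 and 165 CPM, and Cenpf by 1.24 (SE 0.29, adjusted p = 0.0162), to 66.6 and 122 CPM. As in Baf180 KD, replicate 2 was the higher of the pair for all 3. Mki67 rose by 1.10 (SE 0.23, adjusted p = 0.0118), to 292 and 423 CPM, and Kif11 by 0.57 (SE 0.17, adjusted p = 0.0344), to 92.4 and 102 CPM.

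Of the entry kinases and cyclins 3 of 8 rose in Brd9 KD: Ccna2 by 0.34 (SE 0.09, adjusted p = 0.0301), to 218 and 202 CPM, Ccnb1 by 0.32 (SE 0.10, adjusted p = 0.0383), to 91.0 and 88.2 CPM, and Cdc25c, the phosphatase that activates Cdk1, by 0.37. Cdk1 (210.1 and 186 CPM), Plk1 (147 and 136 CPM) and Aurka (122 and 113 CPM) overlapped with scr and did not pass. Neither did Aurkb (81.4 and 78.6 CPM), Cdc20 (204 and 203 CPM) or Top2a (488 and 521 CPM), of which Aurkb and Cdc20 were below and Top2a above both scr libraries. The further rises comprised 3 of 6 kinesins, 3 of 5 centromere and kinetochore genes, 3 of 10 spindle microtubule proteins, 2 of 3 cytokinesis genes, 2 of 4 chromosome structure genes and 2 of 6 checkpoint genes (the kinases Bub1 and Ttk, at 0.89 and 0.79).

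Of the 18 genes that rose, 16 lay below the members' median GC content, with a rho of -0.84 over the 44 genes. Corrected for GC content, 16 rose and none fell, against 13.8% and 14.2% of genes, and 12 of the 18 calls were kept, with Kif20b at 0.88, Smc4 at 0.83 and Mki67 at 1.01, whereas Kif11 at 0.24 (adjusted p = 0.10) and Ccnb1 at 0.18 (adjusted p = 0.13) lost theirs. DESeq2 did not call Cenpf (adjusted p = 0.0746) or Ccnb1 (adjusted p = 0.08). No member was called without Brd9 KD replicate 2, and 11 were without Brd9 KD replicate 1. Fewer of all genes were called in these fits too, and the members' median log2 fold change was 0.28 without either Brd9 KD replicate. Of the 60 other mitotic genes 20 rose and none fell. Lin9 rose by 0.54 (adjusted p = 0.0356), Cdkn1a fell by 0.56 (SE 0.12, adjusted p = 0.0116), and Foxm1 and Mybl2 were at 0.19 and 0.24 and did not pass. Differentiating myocyte markers summed to 37.9 to 41.2 CPM, below the 97.2 to 98.6 CPM of scr, with 6 of 8 tested called lower. Myoblast markers summed to 2057 to 2283 CPM against 3483 to 3844 CPM, with 4 of 6 called lower and 1 higher, and fibroblast markers to 13.2 to 13.6 CPM against 6.87 to 8.26 CPM, with 1 of 3 tested called higher and 1 of the 4 without a count in the Brd9 KD libraries. The part of these markers in the members' values was not tested. The 3 KD comparisons share the 2 untreated scr libraries.

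**Figure D4:**
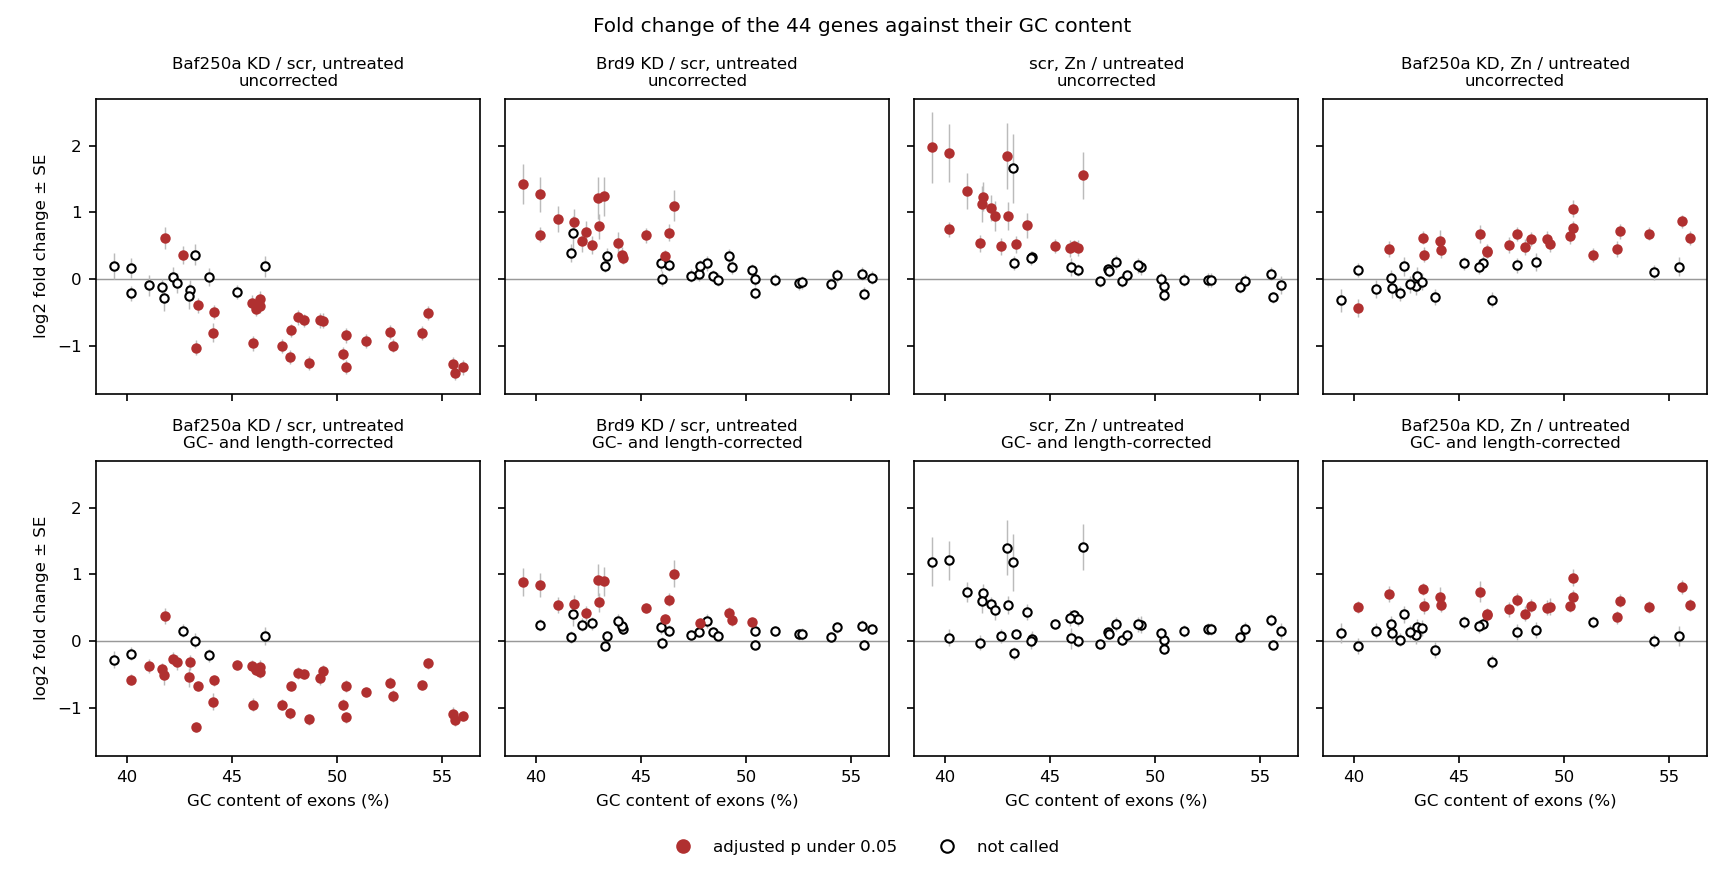
Log2 fold change ± SE of the 44 genes (vertical axis) against the GC content of their exons in percent (horizontal axis) in 4 comparisons, without (top) and with (bottom) the GC and length correction. Filled points passed the test: for Zn in scr 19 points are filled at the top and 0 at the bottom, whereas for untreated Baf250a KD 30 are filled at the top and 38 at the bottom.

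Zn was given to scr cells to measure the response of cells with intact mSWI/SNF complexes, and 19 members rose with it while none fell, where 10.5% of 15002 genes rose and 7.13% fell. The members' median log2 fold change was 0.29, against -0.01 over all genes. Kif20b rose by 1.97 (SE 0.53, adjusted p = 0.0429), from 23.2 and 14.5 CPM to 69.4 and 75.7 CPM, Smc4 by 1.89 (SE 0.43, adjusted p = 0.0315), to 196 and 204 CPM, and Cenpe, the kinesin that aligns chromosomes, by 1.84 (SE 0.49, adjusted p = 0.0432), from 57.6 and 33.6 CPM to 156 and 167 CPM. Both Zn libraries lay above both untreated libraries for each. Mki67 rose by 1.55 (SE 0.36, adjusted p = 0.0315), to 485 and 496 CPM, Kif11 by 1.07 (SE 0.19, adjusted p = 0.0275), to 135 and 139 CPM, Top2a by 0.52 (SE 0.13, adjusted p = 0.0353), to 564 and 568 CPM, and Ccna2 by 0.50 (SE 0.09, adjusted p = 0.0275), to 232 and 234 CPM. By role, 1 of 8 entry kinases and cyclins rose, none of the 2 passenger complex genes, 2 of 6 checkpoint genes, and 3 of 4 chromosome structure genes, 3 of 6 kinesins, 3 of 5 centromere and kinetochore genes, 5 of 10 spindle microtubule proteins and 2 of 3 cytokinesis genes.

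Several regulators of mitosis did not pass in scr with Zn. Cdk1 was at 205 and 209 CPM and Ccnb1 at 90.8 and 88.7 CPM, both above the untreated pair. Plk1 (133 and 128 CPM), Aurka (119 and 114 CPM) and Cdc20 (201 and 188 CPM) each had a mean below that of the untreated pair, and Aurkb (83.9 and 80.6 CPM) lay close to it. These rises followed GC content: 17 of the 19 genes lay below the members' median, and rho was -0.88 over the 44 genes. After the GC correction no member was called, and 0.107% of genes were called in either direction. The members' median log2 fold change was then 0.41 below and 0.14 above their median GC content, and rho was -0.38. With so few genes called, the lack of calls does not show that the members did not rise. With the correction Mki67 was at 1.41 (adjusted p = 0.0858), Kif20b at 1.19 (adjusted p = 0.13) and Kif11 at 0.55 (adjusted p = 0.0643). No member was called without scr NT replicate 2, without scr Zn replicate 1 or without scr Zn replicate 2. Of the 60 other mitotic genes 24 rose and 1 fell without the correction, Lin9 rose by 0.68 (adjusted p = 0.0275) and Cdkn1a fell by 0.53 (adjusted p = 0.0354). Myoblast markers summed to 2874 to 3031 CPM with Zn against 3483 to 3844 CPM without, with 2 of 6 called lower and 1 higher, and differentiating myocyte markers to 75.1 to 77.6 CPM against 97.2 to 98.6 CPM, with none of 8 tested called. The part of these markers in the members' values was not tested.

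In Baf250a KD cells, where most members were low without added metal, Zn was followed by rises in 23 members and a fall in 1 (Smc4), where 8.85% of 14706 genes rose and 7.02% fell. The members' median log2 fold change was 0.36, against 0.00 over all genes, and the 2 Zn libraries summed to 4404 and 3817 CPM over the members, between the untreated Baf250a KD and the untreated scr libraries. By role, 6 of 8 entry kinases and cyclins, both passenger complex genes, 3 of 6 checkpoint, APC/C and securin genes, 4 of 6 kinesins, 2 of 4 chromosome structure genes, 1 of 5 centromere and kinetochore genes, 4 of 10 spindle microtubule proteins and 1 of 3 cytokinesis genes rose.

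The largest rise was that of Nek2, a centrosomal kinase that parts the spindle poles, at 1.06 (SE 0.12, adjusted p = 5.62e-06), with 52.7 and 46.9 CPM untreated and 111 and 59.1 CPM with Zn. Cdc20 rose by 0.86 (SE 0.10, adjusted p = 6.68e-06), to 164 and 179 CPM, and Bub1b by 0.76 (SE 0.11, adjusted p = 8.32e-05), to 133 and 76.9 CPM. For Cdc20 both Zn libraries were far above the untreated pair, whereas for Nek2 and Bub1b the shallow replicate 2 lay much nearer to it. Plk1 rose by 0.62 (SE 0.10, adjusted p = 0.000269), to 88.2 and 84.8 CPM, with both libraries above the untreated pair. Aurkb rose by 0.45 (SE 0.12, adjusted p = 0.00954), to 70.3 and 47.3 CPM, Ccnb1 by 0.43 (SE 0.12, adjusted p = 0.014), to 73.2 and 49.3 CPM, Top2a by 0.37 (SE 0.11, adjusted p = 0.0252), to 432 and 317 CPM, and Aurka by 0.35 (SE 0.11, adjusted p = 0.0244), to 84.0 and 67.0 CPM. In replicate 2 Aurkb, Ccnb1 and Top2a lay within or below the untreated pair, and Aurka just above it.

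Cdk1 (95.7 and 118 CPM) and Ccna2 (147 and 146 CPM) were above the untreated pair in both libraries and did not pass, nor did Kif11 (61.2 and 45.3 CPM) and Mki67 (159 and 149.8 CPM), both below it. Smc4 fell by 0.44 (SE 0.13, adjusted p = 0.0252), from 58.3 and 65.7 CPM to 45.9 and 43.4 CPM. Of the members above the median GC content 17 of 22 rose, and of those below it 6 rose and 1 fell. Corrected for GC content, 23 rose and none fell, 22 of them called without it too, and the calls of Smc4 at -0.08 (adjusted p = 0.73) and of Aurka were lost.

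The count rested on the deeper library: without Baf250a KD Zn replicate 1, which left the library of 495778 counts as the only Zn library, 3 members were called, with Aurkb at -0.06 and Ccnb1 at -0.08, and without Baf250a KD NT replicate 2 the count was 15. DESeq2 called 9, all higher, and not Bub1b (adjusted p = 0.0512), Top2a, Aurka, Aurkb, Ccnb1 or Smc4. Among 60 other mitotic genes 25 rose and 5 fell. Mybl2 rose by 0.79 (SE 0.14, adjusted p = 0.000621), Foxm1 by 0.43 (SE 0.11, adjusted p = 0.00749) and E2f1 by 0.37 (adjusted p = 0.0269), whereas Cdkn1a was at -0.03 (adjusted p = 0.89). Fibroblast markers summed to 74.9 to 80.3 CPM with Zn against 88.2 to 95.2 CPM without, with 1 of 3 tested called lower, and 1 of 6 myoblast markers was called lower. The part of these markers in the members' values was not tested.

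In Baf180 KD cells with Cu 10 members fell and none rose, where 8.3% of 15241 genes fell and 5.46% rose, with a median of -0.08 for the members and -0.01 for all genes. The largest falls were those of Nusap1 at 0.70 (SE 0.15, adjusted p = 0.018), from 36.8 and 40.3 CPM to 20.0 and 28.5 CPM, Hmmr, a spindle assembly factor, at 0.66 (SE 0.13, adjusted p = 0.0135), from 64.4 and 72.8 CPM to 39.5 and 49.5 CPM, and the checkpoint kinase Ttk at 0.66 (SE 0.17, adjusted p = 0.0315), from 36.8 and 45.02 CPM to 21.5 and 31.6 CPM. The groups did not overlap in any of the 3. Mki67 fell by 0.63 (SE 0.19, adjusted p = 0.0479), to 174 and 237 CPM, Kif11 by 0.50 (SE 0.12, adjusted p = 0.0269), to 59.9 and 71.2 CPM, and Top2a by 0.31 (SE 0.08, adjusted p = 0.0343), to 376 and 355 CPM. None of the 8 entry kinases and cyclins was called: Cdk1 stood at 158 and 165 CPM, Ccnb1 at 73.6 and 81.0 CPM, Ccna2 at 162 and 184 CPM, Plk1 at 127 and 135 CPM and Aurka at 106 and 121 CPM. Cdk1, Plk1 and Aurka were above the untreated pair in both Cu libraries, as were Aurkb (89.6 and 90.7 CPM) and Cdc20 (203 and 171 CPM), and none of these passed.

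Of the 10 genes that fell 8 lay below the members' median GC content. After correction 1 fell (Hmmr) and 1 rose (Racgap1), where 5.56% of genes were called in either direction. The count was 0 without Baf180 KD Cu replicate 1 and 0 without Baf180 KD NT replicate 2, and 5 with all 24 libraries in the fit. With the replicate number as a block more members were called, some of them higher, and more were also called with all genes with at least 1 count. DESeq2 did not call Mki67 (adjusted p = 0.136). Differentiating myocyte markers summed to 138 to 143 CPM with Cu against 169 to 188 CPM without, with 3 of 9 called lower, and fibroblast markers to 23.98 to 25.5 CPM against 34.4 to 37.96 CPM, with 2 of 3 tested called lower, while none of 6 myoblast markers was called. The part of these markers in the members' values was not tested.

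The other 5 metal responses gave no member past the threshold in edgeR's test. Members at an unadjusted p under 0.05 are also counted, but the share of all genes at that threshold was not. Such counts therefore do not show that the members stand out. In scr with Cu 0.00667% of 15002 genes rose and 0.0267% fell, and 11 members had an unadjusted p under 0.05 (0 by DESeq2 after adjustment). The smallest p-values were those of Bub1b (log2 fold change -0.31, SE 0.08, adjusted p = 0.45) and Cenpa (-0.30, SE 0.08, adjusted p = 0.45). Cdk1 was at 181 and 163 CPM, Ccnb1 at 70.7 and 61.0 CPM, Ccna2 at 172 and 156 CPM, Plk1 at 129 and 94.9 CPM, Aurka at 111 and 93.3 CPM, Aurkb at 84.6 and 68.9 CPM and Cdc20 at 200.1 and 188 CPM. For these 7 genes replicate 2 was the lower library. For Kif11 (67.5 and 86.4 CPM), Top2a (381 and 434 CPM) and Mki67 (121 and 263 CPM) replicate 2 was the higher.

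In Baf180 KD with Zn 0.0131% of 15241 genes rose and 0.00656% fell, and 11 members had an unadjusted p under 0.05 (DESeq2 called 1). Cdc20, at 212 and 186 CPM, had the smallest p (log2 fold change 0.41, SE 0.10, adjusted p = 0.29), followed by Bub1b at 0.33 (SE 0.10, adjusted p = 0.32). None of the other members passed either, with Cdk1 at 139 and 143 CPM, Ccnb1 at 83.0 and 77.7 CPM, Ccna2 at 178 and 168 CPM, Plk1 at 149 and 119.5 CPM, Aurka at 100.2 and 94.1 CPM, Aurkb at 93.2 and 83.6 CPM, Kif11 at 69.7 and 84.1 CPM, Top2a at 446 and 458 CPM and Mki67 at 229 and 297 CPM.

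In Baf250a KD with Cu 0.626% of 14706 genes rose and 0.646% fell, no member had an unadjusted p under 0.05 and DESeq2 called 0. The members' log2 fold changes ran from -0.21 (Cenpf, adjusted p = 0.53) to 0.18 (Birc5, adjusted p = 0.57). The low levels of the untreated line were still seen, with Cdk1 at 81.6 and 96.2 CPM, Ccnb1 at 55.2 and 57.7 CPM, Ccna2 at 136 and 135 CPM, Plk1 at 60.7 and 60.9 CPM, Aurka at 67.6 and 72.4 CPM, Aurkb at 48.6 and 50.3 CPM and Cdc20 at 91.4 and 96.5 CPM. Kif11 was at 65.7 and 66.2 CPM, Top2a at 304 and 298 CPM and Mki67 at 195 and 156 CPM.

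In Brd9 KD with Cu 0.174% of 14978 genes rose and 0.1% fell, and 8 members had an unadjusted p under 0.05 (0 by DESeq2 after adjustment), with Hmmr at -0.49 (SE 0.14, adjusted p = 0.20) and Bub1 at -0.62 (SE 0.21, adjusted p = 0.25) first by p. In Brd9 KD with Zn 0.0267% rose and 0.00668% fell, and no member had an unadjusted p under 0.05 (0 by DESeq2). Securin (Pttg1) had the smallest p there, at 0.16 (SE 0.09, adjusted p = 1.00), followed by Dlgap5, a spindle assembly protein, at 0.10 (SE 0.08, adjusted p = 1.00). The range of all members in Brd9 KD with Zn, -0.08 to 0.16, was the narrowest of the 8 metal responses. Levels with Cu and Zn, in that order of pairs, were 217 and 224 and then 214 and 193 CPM for Cdk1, 97.1 and 96.9 and then 101 and 87.0 CPM for Ccnb1, 232 and 218 and then 226 and 217 CPM for Ccna2, and 162 and 157 and then 160.2 and 129 CPM for Plk1. They were 140.3 and 139 and then 135 and 110.5 CPM for Aurka, 85.5 and 86.1 and then 90.5 and 76.3 CPM for Aurkb, 221 and 232 and then 227 and 194 CPM for Cdc20, and 91.9 and 76.9 and then 92.3 and 107 CPM for Kif11. Top2a was at 485 and 409.6 and then 512 and 513 CPM, and Mki67 at 295 and 213 and then 304 and 431 CPM. With Cu both Brd9 KD libraries were above the untreated pair for Cdk1, Ccnb1, Plk1, Aurka, Aurkb and Cdc20, and neither metal gave a call.

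Whether a KD line answered a metal differently from scr was tested as the difference between the 2 responses in a fit over all 24 libraries and 16524 genes. These 6 tests share the scr libraries, and the tests of 1 metal share the same scr response. For Zn in Baf250a KD 15 members were higher and 12 lower than the scr response, where 17.3% of genes were higher and 13.2% lower. The differences were 1.32 for Nek2 (SE 0.20, adjusted p = 0.000241), 1.23 for Cdc20 (SE 0.16, adjusted p = 0.000106), 0.90 for Bub1b (SE 0.18, adjusted p = 0.00119), 0.78 for Plk1 (SE 0.21, adjusted p = 0.00827) and 0.51 for Aurkb (SE 0.18, adjusted p = 0.0333). They were -2.25 for Smc4 (SE 0.55, adjusted p = 0.00455), -2.22 for Kif20b (SE 0.71, adjusted p = 0.0227), -1.88 for Cenpe (SE 0.61, adjusted p = 0.0236), -1.80 for Mki67 (SE 0.42, adjusted p = 0.00328) and -1.23 for Kif11 (SE 0.23, adjusted p = 0.000786). By GC content, 13 of the 15 higher genes lay above the members' median and 11 of the 12 lower genes below it. With the GC correction 14 were higher and 4 lower, against 10.5% and 7.35% of genes, and 15 of the 27 calls were kept, those of Nek2, Cdc20 and Bub1b at 1.04, 0.94 and 0.62 and those of Mki67, Smc4 and Kif11 at -1.76, -1.31 and -0.56 among them. The calls of Plk1 at 0.43 (adjusted p = 0.0945), Aurkb at 0.19 (adjusted p = 0.36), Kif20b at -1.12 (adjusted p = 0.15) and Cenpe were lost. Without Baf250a KD Zn replicate 1 the count was 5.

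For Zn in Baf180 KD 6 members were higher and 18 lower than the scr response, where 16.1% of genes were higher and 12.6% lower. The largest differences were 0.79 for Cdc20 (SE 0.15, adjusted p = 0.00139), 0.67 for Nek2 (SE 0.19, adjusted p = 0.0137) and 0.55 for Bub1b (SE 0.17, adjusted p = 0.0211) on the higher side. On the lower side were Kif20b at -2.31 (SE 0.62, adjusted p = 0.00901), Smc4 at -2.24 (SE 0.50, adjusted p = 0.00313), Cenpe at -2.00 (SE 0.54, adjusted p = 0.00988), Mki67 at -1.70 (SE 0.40, adjusted p = 0.004), Kif11 at -1.20 (SE 0.21, adjusted p = 0.00108) and Ccna2 at -0.42 (SE 0.13, adjusted p = 0.0159). Of the 18 lower genes 16 lay below the members' median GC content. With the GC correction 6 were called, all lower (Mki67, Smc4, Nusap1, Bub1, Hmmr and Kif11), where 8.03% of genes were called in either direction. The count was 8 without scr NT replicate 2, 12 without Baf180 KD Zn replicate 1, 13 without scr Zn replicate 2 and 14 without Baf180 KD NT replicate 2.

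For Zn in Brd9 KD 12 members were lower and none higher than the scr response, where 5.25% of genes were lower and 5.86% higher. Kif20b was at -1.97 (SE 0.62, adjusted p = 0.0448), Smc4 at -1.81 (SE 0.50, adjusted p = 0.0319), Cenpe at -1.77 (SE 0.54, adjusted p = 0.0426), Mki67 at -1.45 (SE 0.40, adjusted p = 0.0318) and Kif11 at -0.96 (SE 0.21, adjusted p = 0.0246). Of the 12 genes 11 lay below the members' median GC content, and with the GC correction none was called, where 0.00605% of genes were called in either direction. The members' median difference was then -0.34 below and -0.13 above their median GC content. The count was 0 without Brd9 KD NT replicate 2, Brd9 KD Zn replicate 1, scr NT replicate 2, scr Zn replicate 1 or scr Zn replicate 2, and 19 without scr NT replicate 1.

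For Cu in Baf180 KD 7 members were higher and 3 lower than the scr response, where 5.39% of genes were higher and 7.41% lower. Cdc20 was at 0.66 (SE 0.15, adjusted p = 0.012), Plk1 at 0.60 (SE 0.20, adjusted p = 0.0488) and Aurka at 0.59 (SE 0.16, adjusted p = 0.0218), and Nusap1 was at -0.999 (SE 0.28, adjusted p = 0.0266), Hmmr at -0.81 (SE 0.26, adjusted p = 0.0493) and Kif11 at -0.66 (SE 0.21, adjusted p = 0.0458). All 7 higher genes lay above and all 3 lower genes below the members' median GC content. Corrected for GC content, 2 were called, both higher (Racgap1 and Cenpa), where 2.02% of genes were called in either direction. The count was 0 without Baf180 KD Cu replicate 1, Baf180 KD NT replicate 2, scr Cu replicate 2 or scr NT replicate 2, 18 without scr NT replicate 1 and 28 without scr Cu replicate 1. For Cu in Baf250a KD (0.0121% of genes higher and 0% lower) and in Brd9 KD (0.0242% higher and 0.0121% lower) no member was called by edgeR or DESeq2. In Baf250a KD 7 members and in Brd9 KD 17 had an unadjusted p under 0.05, where the share of all genes was not counted. Birc5 had the smallest p in both, with differences of 0.42 (SE 0.12, adjusted p = 0.43) and 0.37 (SE 0.12, adjusted p = 0.24), followed by Dlgap5 at 0.41 (SE 0.13, adjusted p = 0.57) in Baf250a KD and Cdc20 at 0.45 (SE 0.15, adjusted p = 0.24) in Brd9 KD. Without scr Cu replicate 1 the count in Brd9 KD was 7, and without scr NT replicate 1 it was 1.

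**Figure D5:**
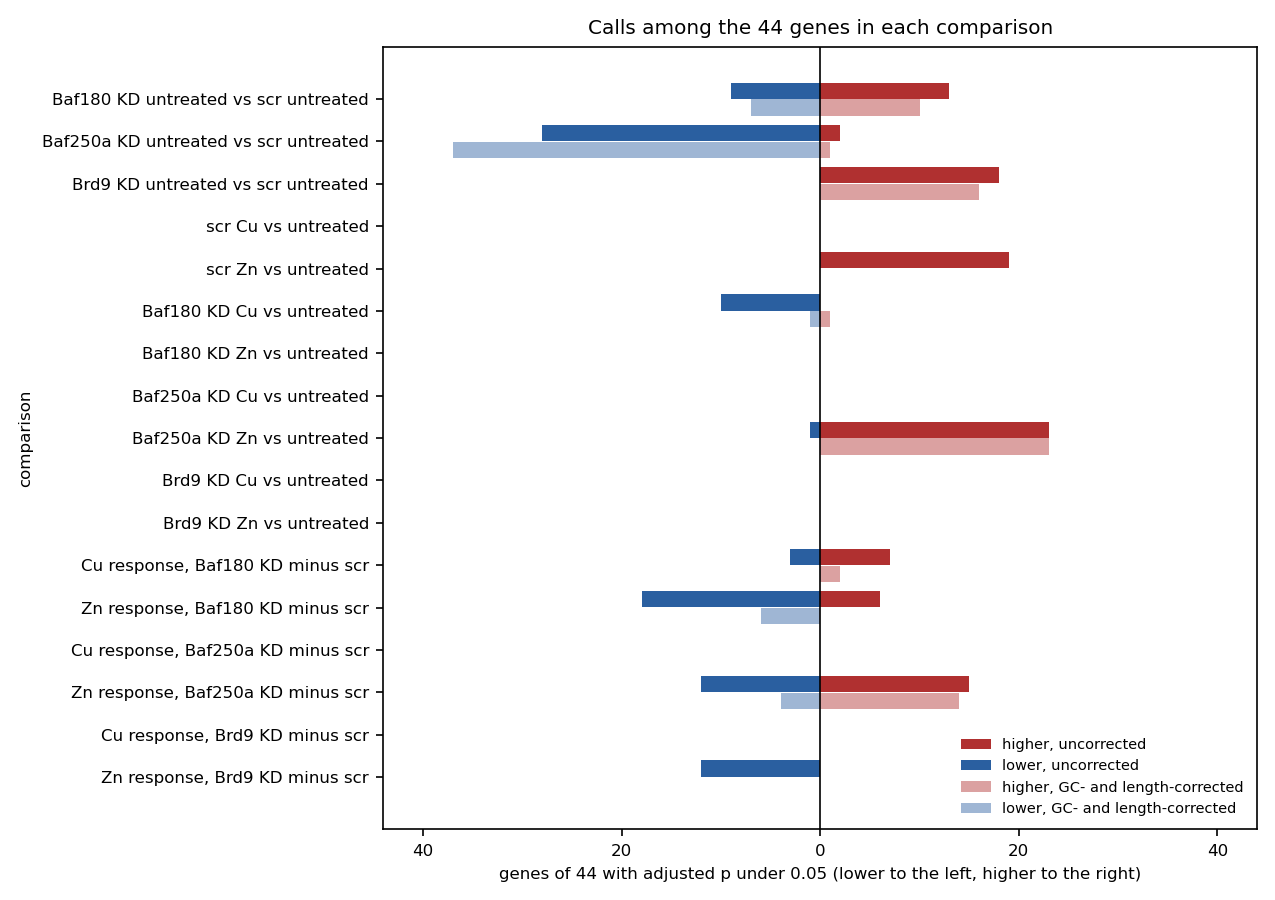
Number of the 44 genes called higher (right) and lower (left) in each of the 17 comparisons at an adjusted p under 0.05, without (dark) and with (pale) the GC and length correction. With the correction untreated Baf250a KD goes from 28 to 37 lower, untreated Brd9 KD from 18 to 16 higher, Baf250a KD with Zn from 23 to 23 higher and Zn in scr from 19 to 0. For Zn in scr 0.107% of all genes were called with the correction.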

How the data were processed

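RNA-seq was performed on 24 libraries, 2 in each of 12 groups formed by 4 cell lines and 3 treatments. Groups were taken from the sample titles, because the treatment entry of the labels contradicts them. Per the study's methods, ribosomal RNA was removed with RNase H, directional libraries were prepared and reads were aligned to mm10 with STAR keeping unique alignments. Fragments with both ends aligned were counted per gene by strand with featureCounts. The authors deposited these raw, unnormalized counts for 55291 gene symbols. The 44 genes, their roles and the other gene lists were chosen with earlier results of these data known.

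Counts were tested with edgeR 4.0.16 in R 4.3.3 (TMM scaling, filterByExpr, quasi-likelihood test, 2-sided) over all genes, and a gene was called at a Benjamini-Hochberg adjusted p under 0.05 with no minimum fold. Each KD line was compared with scr in a fit of 4 untreated libraries, each metal response in a fit of the 6 libraries of a line, and the differences between responses in a fit of all 24. The replicates are described as independent biological replicates. Total counts per library were 495778 to 75179394, and 5 is the lowest count of a member. CPM use TMM-scaled totals, and RPKM divide them by exon length. For the GC correction, offsets were fitted per library as a spline (5 df) of GC content and of length, with genes lacking a value (53290 symbols have a GC content) left uncorrected. The SE of a log2 fold change is its size divided by the square root of the quasi-likelihood F statistic. Alternatives were DESeq2 1.42.0, RLE size factors, all genes with at least 1 count, all 24 libraries in 1 fit, the replicate number as a block (a paired fit), the GC correction and leaving out each library; the crossed block was added after seeing the data. The procedures were tested on simulated data. Values in every library are given for 10 genes fixed by role, together with the 3 largest rises and falls of each comparison among called genes, or the 2 smallest p-values where none was called.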

Additional observations from a re-analysis of the deposited data

Results flagged for a closer look

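Differences between a KD line's response to a metal and that of scr passed edgeR's test of the difference itself (adjusted p under 0.05) in 4 of the 6 such comparisons, all of which use the scr libraries. For Zn in Baf250a KD 27 members differed, with Nek2 at 1.32, Cdc20 at 1.23 and Bub1b at 0.90 on the log2 scale above the scr response, and Smc4 at -2.25, Kif20b at -2.22 and Cenpe at -1.88. For Zn in Baf180 KD 24 differed, with Cdc20 at 0.79, Nek2 at 0.67, Bub1b at 0.55, Kif20b at -2.31, Smc4 at -2.24 and Cenpe at -2.00. For Zn in Brd9 KD 12 differed, with Kif20b at -1.97, Smc4 at -1.81 and Cenpe at -1.77. For Cu in Baf180 KD 10 differed, with Cdc20 at 0.66, Plk1 at 0.60, Aurka at 0.59, Nusap1 at -0.999, Hmmr at -0.81 and Kif11 at -0.66. With the GC correction the counts were 18, 6, 0 and 2, in that order. Of the genes named here, Nek2, Cdc20, Bub1b and Smc4 then kept their calls for Zn in Baf250a KD. For Zn in Baf180 KD only Smc4 did, and for Zn in Brd9 KD and Cu in Baf180 KD none of those named did.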

How the results depend on the processing

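Of the counts of called members, 90 stayed within 1.5 times the reported count under the alternatives that kept all libraries, and 26 did not. With the GC correction 0 members were called for Zn in scr (19 without it), 2 for Cu in Baf180 KD (10), and, as differences from scr, 6 for Zn in Baf180 KD (24), 0 for Zn in Brd9 KD (12) and 2 for Cu in Baf180 KD (10). DESeq2 called 9 for Zn in Baf250a KD (24), 1 for Zn in Baf180 KD (0) and 17 for the Cu difference in Baf180 KD (10). With all genes with at least 1 count, 16 were called for Cu in Baf180 KD, 5 for Zn in Baf180 KD, 3 for Cu in scr, 10 for Cu in Brd9 KD, and 19, 3 and 8 for the Cu differences in Baf180 KD, Baf250a KD and Brd9 KD. All 24 libraries in 1 fit gave 5 for Cu in Baf180 KD.

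No source says that a replicate number marks a shared culture or batch, and the deviations of same-numbered libraries correlated at -0.19 to 0.25. The values were 0.14 (Cu) and 0.25 (Zn) for Baf180 KD, and -0.09 (Cu) and 0.19 (Zn) for Brd9 KD. The numbers were therefore not taken to pair the samples, and whether they do in Baf180 KD or Brd9 KD was not tested further. With the replicate block the counts were 0 for Zn in scr, 20 for Cu in Baf180 KD (16 lower and 4 higher), 6 for Zn in Baf180 KD (4 higher and 2 lower) and 19 for the Cu difference in Baf180 KD. With the block and the GC correction they were 14 for untreated Baf180 KD (22), 0 for Zn in scr, 10 and 0 for the Zn differences in Baf180 KD and Brd9 KD, and 2 for the Cu difference in Baf180 KD. A crossed block, with the numbers swapped in the KD or Cu libraries, was added after seeing the data. It was run only where the correlation was most negative: untreated Baf180 KD (-0.14), untreated Brd9 KD (-0.14) and Cu in scr (-0.19). It gave 30 for untreated Brd9 KD (18), 28 for untreated Baf180 KD and 0 for Cu in scr. The swap lets the block take up more of the spread there, so these counts are not independent support.

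Leaving out 1 library at a time gave 5 to 26 calls for untreated Baf180 KD, 23 to 37 for untreated Baf250a KD, 0 to 25 for untreated Brd9 KD, 0 to 2 for Cu in scr, 0 to 17 for Zn in scr, 0 to 10 for Cu in Baf180 KD and 3 to 26 for Zn in Baf250a KD. For the differences it gave 0 to 28 (Cu, Baf180 KD), 8 to 25 (Zn, Baf180 KD), 5 to 25 (Zn, Baf250a KD), 0 to 7 (Cu, Brd9 KD) and 0 to 19 (Zn, Brd9 KD), and 0 to 0 for Zn in Baf180 KD, Cu in Baf250a KD, both metals in Brd9 KD and the Cu difference in Baf250a KD. A lone library left in a group is assumed to vary like the other groups. In the untreated comparisons, leaving out a KD library also lowered the number of all genes called. Under these fits the log2 fold change with Zn in Baf250a KD ran from -0.064 to 0.498 for Aurkb and from -0.082 to 0.498 for Ccnb1, both below 0 only without Baf250a KD Zn replicate 1. The cause of these changes was not tested. The library of 495778 counts limits all values for Baf250a KD with Zn.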

Other observations

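The G1/S and replication genes, which act before the G2 and mitosis genes in the cycle, were counted as a list of 42. In untreated Baf250a KD 33 fell and 4 rose, with a median log2 fold change of -0.62, where 28.9% of all genes fell and 28.9% rose, and with Zn in that line 28 rose and none fell, with a median of 0.48, where 8.85% of all genes rose and 7.02% fell. In Baf180 KD with Cu 12 rose and 1 fell, where 5.46% of all genes rose and 8.3% fell. Smaller or more even numbers were called in untreated Baf180 KD (6 rose and 9 fell, against 21.7% and 19.3% of genes), in untreated Brd9 KD (7 rose and 2 fell, against 15.1% and 14.1%) and in scr with Zn (6 rose and 3 fell, against 10.5% and 7.13%). Of 16 APC/C subunits and partners, which degrade mitotic proteins, 8 fell and 3 rose in untreated Baf250a KD, and 5 rose and 1 fell there with Zn. Of 5 tested CDK inhibitors, 2 rose and 2 fell in untreated Baf250a KD. The shares of all genes given for the same comparisons apply to these counts too. These lists were chosen with earlier results of these data known.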
